A study of Macaca mulatta with 102 samples.

Results

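Small annotated transcripts, those whose locus spans 100 to 199 bases from first to last base, made up 3897 of the 42701 transcripts measured in milk and mammary tissue of rhesus macaques (9.13%). They were chosen by span alone, and 1 further transcript of such a span, ENSMMUT00000038434, was left out by the same rule. RNA came from 6 lactating animals (M1 to M6) with no treatment named in the labels. There were 6 mammary biopsies, of which M3, M4 and M6 gave theirs 30 days after birth and M1, M2 and M5 theirs at 90 days. Milk cells were taken from all 6 animals on both days, milk fat from M1, M2, M3 and M6 at day 30 and from all 6 at day 90, and cell-free milk from all 6 at day 90. The cell-free specimens carry no such word in their labels, which name fat with a suffix or, for M3, skim, so every value given for cell-free milk holds only if this reading of the labels is right.

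Annotated transcripts of this size are a mixed class. They include small nuclear and small nucleolar RNAs, which guide splicing and the modification of other RNAs, the hairpins from which microRNAs are cut, and short protein models, among them metallothioneins and partial or processed copies of ribosomal and other genes. Most small non-coding RNAs carry no poly(A) tail, whereas the libraries here were made from poly(A) RNA and read as single reads of about the length of the loci themselves. The files pair these identifiers with no names, so loci are given by position on rheMac2, the build used by the authors, and by span.

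Levels were deposited as FPKM, fragments scaled to transcript length and to mapped reads, for 3 technical runs of each of the 34 specimens, and the runs were averaged. Relative sequencing depth, read from the spacing of low values with the median specimen set to 1, ranged from 0.741 to 1.63 and averaged 0.950 in biopsies, 1.01 in milk cells, 1.05 in milk fat and 1.07 in cell-free milk. PLIN2, the coat protein of milk fat droplets, had a median of 471 FPKM in biopsies, 979 in milk cells, 33597 in milk fat and 6957 in cell-free milk, so the last was intermediate in this marker of milk fat. CSN2, the milk protein beta-casein, was at 199149 FPKM or more in all 34 specimens, biopsies included. PLIN2, CSN2 and B2M here are 1 transcript each, named by matching mean levels to the authors' tables of abundant genes. Those tables list further PLIN2 and CSN2 transcripts. Apart from B2M, given with the shares, markers of other cell types were not examined. In these bulk specimens, fewer cells of a type and less RNA per cell cannot be told apart.

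Most of the small loci were listed at 0 in every specimen. Only 778 of the 3897 (19.96%) had an FPKM above 0 in any specimen, and 3119 (80.0%) were at 0 in all 34. By the same measure 11.9% of 2057 loci under 100 bases were seen, 78.4% of 4241 loci of 200 to 1000 bases and 95.3% of 32505 longer ones. Detection was also patchy among those seen. Values above 0 in all 34 specimens were found for 56 small loci (1.44%), against 26.7% of loci of 200 to 1000 bases, and 373 small loci were seen in 1 specimen each.

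Longer loci within the class were seen more often. At a span of 100 to 109 bases, which held 1956 loci, 11.2% were above 0 in any specimen, and at 190 to 199 bases, which held 120, 50.8% were. The rise was uneven, with 40.2% at 130 to 139 bases and 25.2% at 140 to 149. The scale of FPKM changed along the same axis. Among loci above 0 in 1 to 5 runs, which rest on few reads, the median value in such a run was 20.9 FPKM at 100 to 109 bases and 2.94 at 190 to 199, a ratio of 7.11. It was 1.16 FPKM at 200 to 299 bases and 0.0975 at 900 to 1099 bases. A mean of several FPKM for a small locus may thus stand for a read or so, and such means are not comparable with those of long genes.

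**Figure D1:**
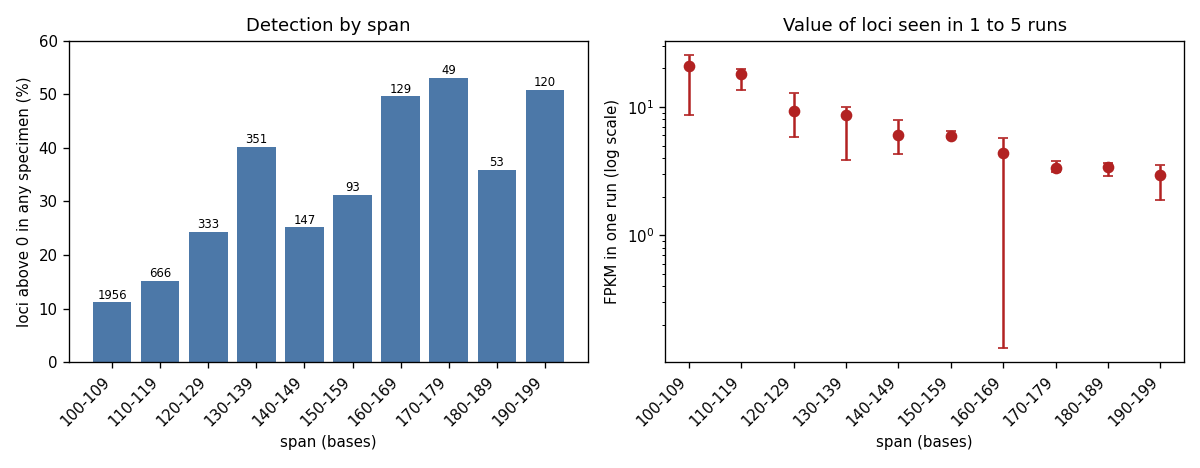
Left, percent of small loci above 0 FPKM in any of the 34 specimens, by span in bases, with the number of loci over each bar; right, median FPKM with quartiles, on a log axis, in runs above 0 of loci seen in 1 to 5 runs. Detection was 11.2% in the shortest bin and 50.8% in the longest, while the value of a rarely seen locus went from 20.9 to 2.94 FPKM.

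Sample types differed in how many small loci were seen. A biopsy had 190 ± 36.2 loci above 0 (SD, n = 6, range 142 to 236), a milk cell specimen 171 ± 28.4 (n = 12, 144 to 233), a milk fat specimen 153 ± 14.6 (n = 10, 131 to 178) and a cell-free specimen 138 ± 6.06 (n = 6, 127 to 143). Cell-free milk had fewer than the biopsy of the same animal in 6 of 6 animals, and fewer than the day 90 milk cells in 6 of 6. This order rested on loci seen in only some runs. Counting loci above 0 in all 3 runs of a specimen gave 63.8 ± 18.1 in biopsies, 71.4 ± 8.44 in milk cells, 67.2 ± 13.7 in milk fat and 65.5 ± 7.18 in cell-free milk, with biopsies lowest and differences between the means smaller than the SD of the biopsies. Depth moved the other way from detection over the 4 types, since biopsies had the lowest mean depth and the highest number of loci seen, and its part in the counts was not tested.

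Pooled over specimens, 431 small loci were seen in any biopsy, 493 in milk cells, 370 in milk fat and 272 in cell-free milk, but the types have different numbers of specimens. Of the 778, 183 were seen in all 4 types and 421 in 1 type only. Loci seen in every specimen of a type were about equally many, with 76 in biopsies, 74 in milk cells, 71 in milk fat and 77 in cell-free milk.

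The small loci held about a percent of all FPKM. Their share of the summed FPKM of a specimen was 0.886% ± 0.382 in biopsies (SD, n = 6, range 0.545 to 1.58), 1.26% ± 0.377 in milk cells (n = 12, 0.868 to 2.26), 1.59% ± 0.708 in milk fat (n = 10, 1.03 to 3.39) and 1.32% ± 0.180 in cell-free milk (n = 6, 1.10 to 1.61). Averaged over days, milk fat was above the biopsy in 6 of 6 animals, milk cells in 4 of 6 and cell-free milk in 5 of 6. Milk fat was above milk cells in 6 of 6 animals at day 90, in 2 of 4 at day 30 and in 4 of 6 over both days. At day 90 cell-free milk was above milk cells in 6 of 6 animals, whereas cell-free milk was above milk fat in 3 of 6. The types overlapped in range. A few very abundant transcripts, caseins among them, dominate the denominator: with the 20 highest transcripts taken out of it the shares were 3.94%, 4.74%, 5.39% and 5.05% in the same order of types, and the order was kept.

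Days and animals moved the share as well. In milk cells it was lower at day 90 than at day 30 in 6 of 6 animals, with means of 1.08% and 1.43%, and the highest value was that of M2 at day 30, 2.26%. The level of B2M, a gene of antigen presentation that leukocytes express strongly, was also highest in that specimen, at 10805 FPKM against 4849 in the next highest, and its part in the share was not tested. In milk fat 3 of 4 animals were lower at day 90. The highest share of all, 3.39%, was that of the day 30 milk fat of M6, where the locus on chromosome 19 described further on held 38.7% of the small transcripts' FPKM and another on chromosome 16 held 27.8%. Without those 2 loci, an alternative chosen after the values were seen, the milk fat mean was 1.21% ± 0.238 and lay under that of cell-free milk, 1.23% ± 0.145, milk fat was above the biopsy in 5 of 6 animals, and the days of milk fat differed in no common direction (lower in 2 of 4). Among animals, M2 had the highest share in milk cells of both days, day 90 milk fat and cell-free milk, and M6 in biopsies and day 30 milk fat.

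**Figure D2:**
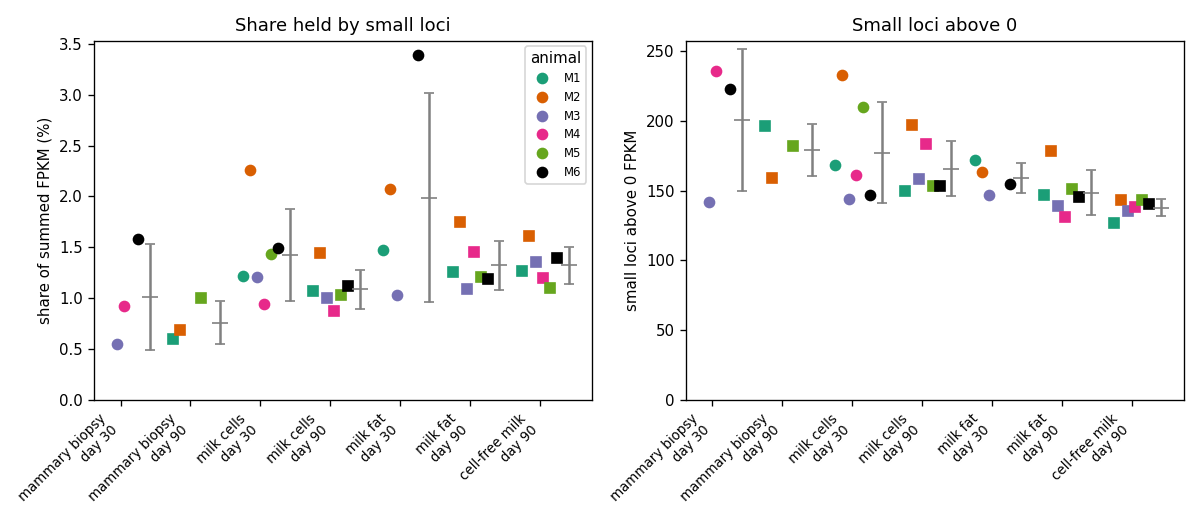
Share of summed FPKM held by small loci (percent) and number of small loci above 0, by sample type and day; circles are day 30, squares day 90, colours the animals, grey marks the mean ± SD. Milk fat averaged 1.59% and biopsies 0.886%, while biopsies had the most loci seen, 190 on average.

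The signal was concentrated in a handful of loci. The highest locus held 15.5% of the FPKM of all small loci, the highest 5 held 54.4%, the highest 10 held 70.9% and the highest 50 held 95.9%. A locus whose end minus start is a multiple of 3, as in models of coding sequence alone, was 1 of 1316 (33.8% of the class), and these held 88.1% of the FPKM, but which of them code for protein was not tested. Of the 23 loci with a mean of at least 100 FPKM, 19 had such a length, and so had all 4 of those with at least 1000. Of the 1480 loci within another, 19.93% were seen in any specimen, against 19.98% of the 2417 others. Seen in all 34 specimens were 11 of the former and 45 of the latter, and loci within another held 8.86% of the FPKM.

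The highest of all was ENSMMUT00000003525, on chromosome 14 (120913971 to 120914157, span 187). Its mean levels matched those of MT1E in the authors' own table of abundant genes within 0.337% in each of the 3 sample types listed there, with the next nearest transcript 26.6% away, and the name rests on that match. Metallothioneins are small cysteine-rich proteins that bind zinc and copper. The level was 1871 ± 1173 FPKM in biopsies (SD, n = 6, lowest 770, median 1444, highest 4111), 2177 ± 822 in milk cells (n = 12, 1165, 2033 and 4477), 1809 ± 751 in milk fat (n = 10, 925, 1580 and 3420) and 3325 ± 835 in cell-free milk (n = 6, 2061, 3689 and 4215). All 4 types overlapped. M6 was the highest animal in the biopsies and in the day 30 milk cells and milk fat. At day 90 cell-free milk was above milk cells in 6 of 6 animals, by 0.64 on the log2 scale (standard error, SE, 0.23), but this did not pass correction (limma, Benjamini-Hochberg adjusted p = 0.174), and no comparison called the locus.

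A locus of the same span on chromosome 10 (65509765 to 65509951) had the pattern most like it, with a Pearson r of 0.907 over the 34 specimens on log2 levels, which share libraries, animals and scaling. Its levels were 759 ± 735, 1182 ± 551, 1083 ± 479 and 1885 ± 477 FPKM in biopsies, milk cells, milk fat and cell-free milk. Against biopsies it was higher in cell-free milk in 6 of 6 animals, with a log2 fold change of 1.40 (SE 0.38, limma adjusted p = 0.0089), short of the 3-fold change required of a call. The biopsy of M6, at 2185 FPKM, stood far above the other 5, which were between 340 and 928.

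Another pair of like span was on chromosome 11 (18011381 to 18011555, span 175) and chromosome 7 (133520047 to 133520221, span 175), with r = 0.988 between them over the 34 specimens. The chromosome 11 locus was at 1066 ± 536 FPKM in biopsies, 2015 ± 601 in milk cells, 2733 ± 617 in milk fat and 1975 ± 479 in cell-free milk. It was higher in milk fat than in the biopsy of the same animal in 6 of 6 animals (log2 fold change 1.25, SE 0.21, limma adjusted p = 0.000292), again below 3-fold. The locus with the next most similar pattern, on chromosome 4 (149941514 to 149941685, span 172; r = 0.953), did pass: it rose from 276 ± 154 FPKM in biopsies to 1030 ± 319 in milk fat, with a log2 fold change of 1.80 (SE 0.24, limma adjusted p = 5.38e-05).

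**Figure D3:**
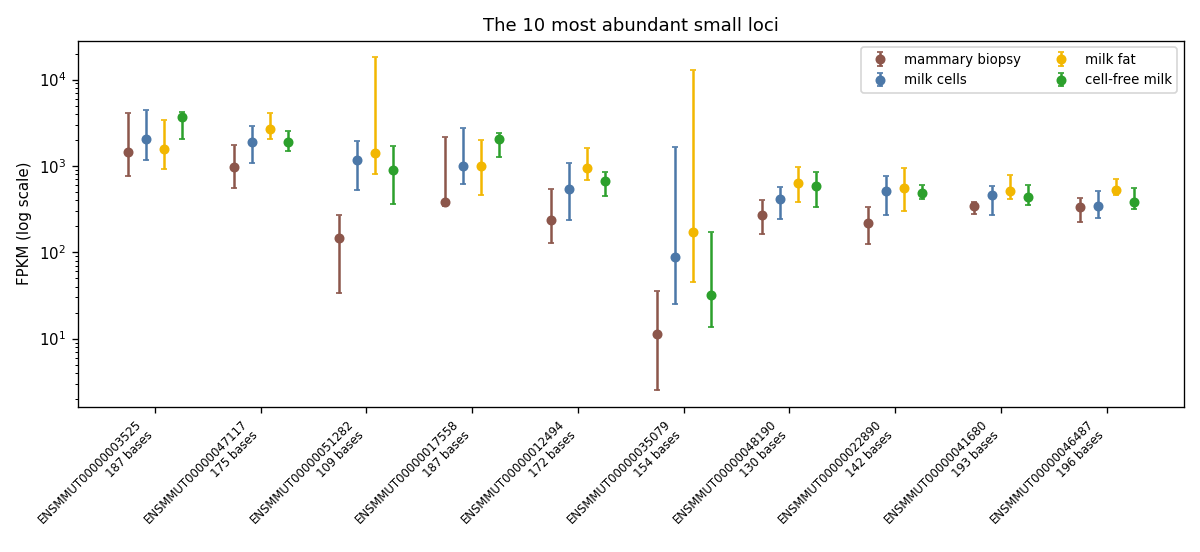
FPKM (log axis) of the 10 small loci with the highest mean, by sample type. Points are medians and bars run from the lowest to the highest specimen. The MT1E-matched locus was highest in cell-free milk, at a median of 3689 FPKM, and the chromosome 19 locus of span 109 had the widest range in milk fat, up to 18120.

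A pair of loci was far more abundant in milk cells and milk fat than in the gland. ENSMMUT00000051282, on chromosome 19 (23156435 to 23156543, span 109), was at 33.5 to 270 FPKM in the 6 biopsies (median 147), 525 to 1961 in the 12 milk cell specimens (median 1181), 812 to 18120 in the 10 milk fat specimens (median 1414) and 364 to 1694 in the 6 cell-free specimens (median 901). No milk specimen of any type was as low as the highest biopsy. Against biopsies the log2 fold change was 3.78 in milk fat (SE 0.48, limma adjusted p = 3.06e-05), 3.04 in milk cells (SE 0.41, adjusted p = 8.51e-05) and 2.61 in cell-free milk (SE 0.47, adjusted p = 0.000716), each in 6 of 6 animals. These comparisons share the biopsies. The day 30 milk fat specimens were at 3280 FPKM in M1, 4577 in M2, 925 in M3 and 18120 in M6, and leaving out the last gave a log2 fold change of 3.49 for milk fat.

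ENSMMUT00000035079, on chromosome 16 (29585798 to 29585951, span 154), had the pattern most like it, with r = 0.871 over the 34 specimens. It was at 2.55 to 35.4 FPKM in biopsies (median 11.3), 25.1 to 1665 in milk cells (median 88.3), 44.7 to 13025 in milk fat (median 174) and 13.7 to 171 in cell-free milk (median 31.7). All milk fat specimens were above all biopsies, whereas milk cells and cell-free milk overlapped with them. It was called higher in milk fat (log2 fold change 3.70, SE 0.84, limma adjusted p = 0.00253) and in milk cells (adjusted p = 0.00139), each in 6 of 6 animals. In cell-free milk it was not called, with a log2 fold change of 1.35 from biopsies (SE 0.63, limma adjusted p = 0.0936) and a higher level in 4 of 6 animals. The 2 highest values were those of M6 in day 30 milk fat and of M2 in day 30 milk cells.

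A locus on chromosome 1 (178593331 to 178593507, span 177), which lies within a longer locus, moved likewise at a lower level. It was at 0 to 20.8 FPKM in biopsies, between 19.9 and 107 in milk cells, between 32.8 and 789 in milk fat and between 5.65 and 68.2 in cell-free milk. Its log2 fold change from biopsies to milk fat was the largest upward one among small loci, 3.82 (SE 0.63, limma adjusted p = 0.000238). Here too the day 30 milk fat of M6 was the highest specimen.

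The opposite pattern was that of ENSMMUT00000026449, on chromosome 14 (8929586 to 8929753, span 168), which overlapped no other locus. It was at 207 to 706 FPKM in the 6 biopsies (median 451), 30.8 to 283 in the 12 milk cell specimens (median 108), 1.55 to 13.8 in the 10 milk fat specimens (median 4.82) and 0 to 9.74 in the 6 cell-free specimens (median 2.33). Every biopsy and every milk cell specimen was above every milk fat and cell-free specimen, while biopsies and milk cells overlapped. Relative to biopsies, the log2 level fell by 6.44 in milk fat (SE 0.32, limma adjusted p = 6.73e-09), by 2.24 in milk cells (SE 0.34, adjusted p = 0.00022) and by 7.36 in cell-free milk (SE 0.50, adjusted p = 1.4e-07), each in 6 of 6 animals. It also fell by 4.20 from milk cells to milk fat (SE 0.40, adjusted p = 4.63e-05) and by 5.10 from day 90 milk cells to cell-free milk (SE 0.58, adjusted p = 0.00128). A level of a few FPKM at this span is near that of a locus seen in few reads, so the size of these differences is loosely set, and over the alternatives it lay between -6.80 and -4.93 in milk fat.

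**Figure D4:**
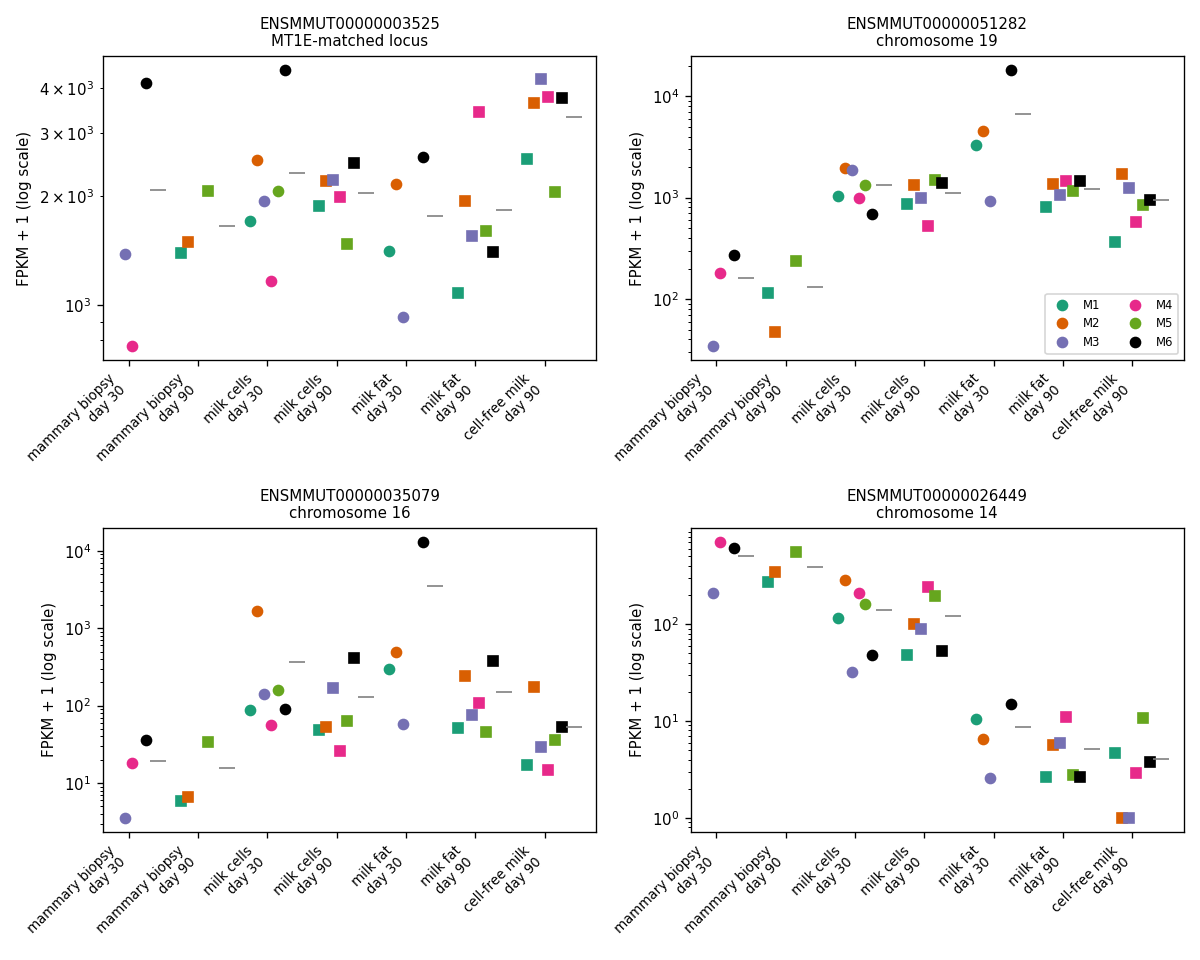
FPKM + 1 (log axis) of 4 small loci by sample type and day; circles are day 30, squares day 90, colours the animals and grey lines the means. The MT1E-matched locus overlapped in all types, the loci on chromosomes 19 and 16 were higher in milk fat with a day 30 specimen of M6 at 18120 and 13025 FPKM, and the chromosome 14 locus of span 168 was at 207 to 706 in biopsies and at most 13.8 in milk fat.

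Milk fat against biopsies gave the most calls of all comparisons. Of 181 small loci with a mean of at least 1 FPKM, 16 were called higher in milk fat and 29 lower (limma, adjusted p under 0.05 and over 3-fold), which is 8.84% and 16.02% of those tested. Over all 13413 transcripts tested, 3.09% were called higher and 6.17% lower. The median log2 fold change was -0.13 for the small loci and 0.07 for all transcripts. An unadjusted limma p under 0.05 was found for 78 of the 181, against 8068 of all 13413, so for a smaller share of the small loci. These loci passed a filter on their mean, and 70 of the 181 were above 0 in under 50% of the specimens, so the shares are no measure of the whole class.

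The loci called in each direction were unlike in level. Those called higher had a median of 107 FPKM in the higher group, and 11 of the 16 were multiples of 3, as were 11 of the 29 called lower and 89 of the 181 tested. Those called lower had a median of 11.3 FPKM there, 24 of the 29 were under 25 FPKM and 11 were at 0 throughout 1 of the groups. Of the lower ones, 18 lay inside a longer locus, as did 7 of the higher ones and 66 of the 181 tested. For 16 of the 18 lower ones the longer locus was itself tested, and none of the 16 longer loci was called lower. Their median log2 fold change was 0.69, against -2.55 for the small loci. The small loci were taken because they were called lower and the longer ones were not, so a gap between the medians was set by the choice. The excess of lower over higher calls depended on how low values were treated. With 10 added to FPKM in place of 1, 8 loci were called higher and 5 lower, and when only the 130 loci above 0 in at least 50% of specimens were tested, 15 were higher and 10 lower, with a median log2 fold change of 0.25.

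Another locus called lower in milk fat was ENSMMUT00000049596 (chromosome 7, 22186468 to 22186569), which lies within a longer locus. It was at 21.0 to 58.3 FPKM in all 6 biopsies and listed at 0 in all 10 milk fat and all 6 cell-free specimens. It passed the filter on the mean only through its level in biopsies, so no p is given. In milk cells it was above 0 in 5 of 12 specimens, of which the highest was 20.6 FPKM.

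**Figure D5:**
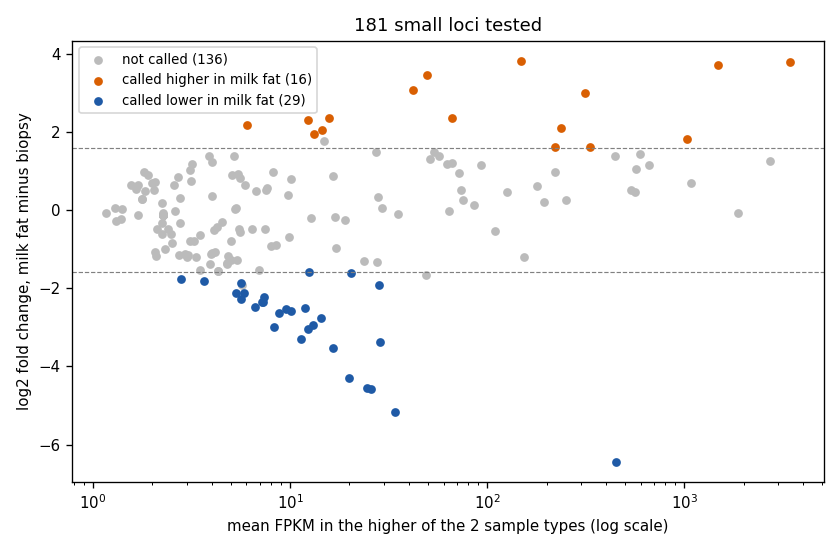
Log2 fold change from biopsy to milk fat against the mean FPKM in the higher of the 2 types (log axis) for the 181 small loci tested; orange points were called higher in milk fat (16), blue lower (29), and dashed lines mark 3-fold. Of the 29 lower calls, 24 lay under 25 FPKM, and the chromosome 14 locus, at 450 FPKM in biopsies, had a log2 fold change of -6.44.

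Some of the small loci taken because they were called lower lay side by side. On chromosome 16, 3 small loci between 7300741 and 7304898 were all called lower in milk fat, from 9.53, 12.3 and 12.4 FPKM in biopsies to 0.927, 0.409 and 3.55. The longer transcript around them was at 10.3 ± 4.33 FPKM in biopsies and 26.5 ± 6.54 in milk fat, a log2 fold change of 1.12. On chromosome 2, between 179144221 and 179145277, 2 small loci went from 13.02 and 19.8 FPKM to 0.924 and 0.301, while the transcript around them was at 32.4 ± 11.04 and 64.7 ± 18.8.

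Milk cells differed from biopsies in fewer loci. Of 195 tested, 6 were called higher (3.08%) and 17 lower (8.72%), against 1.82% and 4.25% of all 14172 transcripts. The median log2 fold changes were 0.09 for small loci and 0.02 for all. The loci with the largest changes were those given above, on chromosomes 1 and 19 upward, and downward ENSMMUT00000049596 on chromosome 7, from 33.9 ± 12.8 to 5.25 ± 7.32 FPKM. On chromosome 18 (14042891 to 14043041) a locus rose from 1.63 ± 1.89 to 9.45 ± 6.51 FPKM in 6 of 6 animals (log2 fold change 2.06, SE 0.43, limma adjusted p = 0.00225). With FPKM as deposited, in which the median of all transcripts shifted by 0.22 on the log2 scale, the counts were 10 and 16, so that 38.5% of calls were upward in place of 26.1%. With 10 added to FPKM they were 3 and 2, and testing only loci above 0 in at least 50% of specimens left 11 lower.

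Cell-free milk against biopsies gave 6 higher (3.35%) and 26 lower (14.5%) of 179 tested, against 1.66% and 5.79% of all 13700. The median log2 fold change was -0.62 for small loci and 0.05 for all. An unadjusted limma p under 0.05 was found for 77 of the 179, against 7545 of all 13700, again a smaller share of the small loci. Of the 26, 18 lay inside a longer locus, as did 74 of the 179 tested, and 14 were at 0 throughout 1 of the groups. A locus on chromosome 1 (85608245 to 85608443, span 199) rose from 43.8 ± 30.1 to 217 ± 52.3 FPKM in 6 of 6 animals (log2 fold change 2.34, SE 0.41, limma adjusted p = 0.00054), and it was 315 ± 89.3 FPKM in milk fat. One on chromosome 5 (76677862 to 76677984) was at 5.53 to 18.4 FPKM in biopsies and listed at 0 in all 6 cell-free specimens. The higher count was 10 with FPKM as deposited, 10 without M5 and 11 without M6. With 10 added to FPKM the counts were 2 and 5, with 0.1 added 11 were higher, and testing only loci above 0 in at least 50% of specimens left 14 lower.

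Few loci passed 3-fold between the milk fractions. From milk cells to milk fat, 1 locus of 168 was called higher (0.595%) and 2 lower (1.19%), against 0.569% and 1.07% of all 13521 transcripts. Without the 3-fold requirement, 20 were higher and 24 lower at an adjusted p under 0.05, a count not taken over all transcripts. At an unadjusted limma p under 0.05 were 64 of the 168 and 7093 of all 13521, so a smaller share of the small loci. The higher one, on chromosome 7 (155249775 to 155249886), went from 3.67 ± 4.21 to 12.4 ± 8.26 FPKM (log2 fold change 1.84, SE 0.44, limma adjusted p = 0.00577), in 6 of 6 animals. The lower ones were the chromosome 14 locus of span 168 and the first of the chromosome 2 neighbours. The chromosome 7 locus fell short of 3-fold without M3 (log2 fold change 1.40) and the chromosome 2 locus without M2, M4 or M5 (-1.51 to -1.41). Leaving out 1 animal gave 1 or 2 higher and 1 to 5 lower, with 5 without M3 or M6, 4 without M1 and 1 without M2 or M5, and with 0.1 added to FPKM the counts were 4 and 17.

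Cell-free milk against day 90 milk fat gave 0 higher and 1 lower (0.813%) of 123 tested by limma, against 0.204% and 0.259% of all 12730. At an unadjusted p under 0.05 were 35 of the 123 and 5475 of all 12730, a smaller share of the small loci. The locus called lower was the third of the chromosome 16 neighbours, at 4.58 ± 3.52 FPKM in day 90 milk fat and above 0 in 1 of the 6 cell-free specimens. It was lower in 5 of 6 animals, with a log2 fold change of -1.83 (SE 0.49). It passed the filter on the mean only through its level in milk fat, so no p is given. The locus itself was no longer called without M1, M2, M3 or M4, without the filter or with 10 added to FPKM. Counting any locus, leaving out M4 gave 0 lower, leaving out M3 gave 4 and leaving out M5 gave 6. Leaving out M1 or M5 gave 1 higher, and with the animal as a block there were 3 lower. Against day 90 milk cells, 0 were higher and 4 lower (2.56%) of 156, against 0.0374% and 0.254% of all 13371. At an unadjusted limma p under 0.05 were 26 of the 156 and 2503 of all 13371. The 4 lower ones were the chromosome 14 locus of span 168, the third chromosome 16 neighbour and loci of 131 and 139 bases on chromosomes 4 and 10. Leaving out M1, M2, M5 or M6 gave 2 lower, and leaving out M4 gave 1. The chromosome 16 neighbour was no longer called without M2, M4 or M6. It passed the filter on the mean only through its level in milk cells, so no p is given. The chromosome 10 locus did so too, at 3.61 FPKM in day 90 milk cells and 0.465 in cell-free milk. Of the 4, 3 were under 25 FPKM in the higher group and 1 was at 0 throughout 1 of the groups. Loci that pass only through milk cells are bound to be lower in cell-free milk, so the share called is no measure of the class.

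Days of lactation gave no call among small loci. In milk cells, 0 of 191 were called higher or lower at day 90 by limma, against 0.0796% and 0.0145% of all 13815 transcripts. At an unadjusted p under 0.05 were 29 of the 191 (8 higher, 21 lower) and 4058 of all 13815, a smaller share of the small loci. Leaving out M3 gave 2 lower calls among 201 small loci and 5 among all 14098 transcripts. Without the 3-fold requirement, a count not taken over all transcripts, 2 small loci were higher and 1 lower at an adjusted p under 0.05. The last, on chromosome 18 (62856335 to 62856476, span 142), fell from 606 ± 101 to 375 ± 94.1 FPKM in 6 of 6 animals (log2 fold change -0.65, SE 0.17, limma adjusted p = 0.0461). A locus on chromosome 20 (2822625 to 2822819) rose from 55.3 ± 16.3 to 94.7 ± 38.1 FPKM, also in 6 of 6 (log2 fold change 0.77, SE 0.16, adjusted p = 0.0383), and one on chromosome 10 (68220945 to 68221083) from 1.18 ± 2.16 to 3.61 ± 1.73 (log2 fold change 1.47, SE 0.39, adjusted p = 0.0497).

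With the animal as a block, 16 of all 13815 transcripts were called higher and 9 lower at day 90 in milk cells. Of the 191 small loci, 2 were called higher and 3 lower, all at low levels. The largest of these levels was on chromosome 4 (31638144 to 31638267), with 9.35 FPKM at day 30 and 25.7 at day 90 (limma adjusted p = 0.0314). In milk fat, 0 of 144 were called in either direction by limma and 0% of all 12609 transcripts. At an unadjusted p under 0.05 were 10 of the 144 and 661 of all 12609. Leaving out M3 gave 1 lower among small loci and 2 among all transcripts. In biopsies, where the days are different animals, 0 of 266 were called and 0% of all 13762. At an unadjusted limma p under 0.05 were 15 of the 266 and 440 of all 13762. Leaving out M3 gave 3 lower among small loci and 8 among all transcripts. Day and animal cannot be told apart in the biopsies.

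Some loci could not be distinguished at all. In 21 groups, 58 small loci in all, the members had identical values to 6 decimals in every run, and each group was of a single span. Counted once, they leave 741 loci seen in place of 778. The largest group held 10 loci of span 165 on 2 chromosomes. Each of its loci was above 0 in all 34 specimens, and in milk cells at 8.24 ± 14.4 FPKM with a highest value of 50.6. These 10 are therefore among the 56 small loci seen in all 34 specimens, and among those seen in every specimen of a type, though their values are 1 and the same. Another held 8 loci of span 108 on 6 chromosomes, above 0 in 16 specimens. How reads that fit several copies were shared among them was not tested.

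The spread between technical runs was of the size of that between animals. On the log2 scale the median SD over the 3 runs of a specimen was 0.635 for the 53 loci with a mean of at least 10 FPKM, while that over animals, for averages of 3 runs, was 0.506 to 0.853 in the 4 types. For the 123 loci of 1 to 10 FPKM it was 0.691 over runs and 0.784 to 1.25 over animals. The highest loci were steadier, with a median coefficient of variation over runs of 3.5% for the MT1E-matched locus and 18.9% for that on chromosome 19.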

How the data were processed

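Transcript levels came from poly(A) RNA libraries (TruSeq) of 34 specimens, each sequenced in 3 technical runs as single reads. The submitters' processing notes name FastQC, Bowtie, TopHat and Cufflinks, and the authors mapped reads to rheMac2 and deposited FPKM for Ensembl transcripts, with no counts. Absolute depth is therefore unknown, and no counting interval is given. Another 6 columns bear the name of no sample of the series and were left out. Runs were averaged as FPKM.

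Small loci were taken by span, and these loci and the tests were chosen with earlier results of these data known. Shares and detection are descriptions without a test. For tests, median-of-ratios factors were used to scale FPKM, 1 was added, and log2 values were fitted with limma 3.58.1 (R 4.3.3) with a trend over all transcripts with a mean of at least 1 FPKM in the specimens compared. Fold changes are on the log2(scaled FPKM + 1) scale, which understates the change of low loci. P-values are two-sided and adjusted over all transcripts by Benjamini-Hochberg. A call needed an adjusted p under 0.05 and more than a 3-fold change. Types were compared over averages per animal, the cell-free comparisons and days over single specimens. Scripts used Python 3.11.15 and were tested on simulated data.

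Loci were named by rule: the 10 highest of each type and, per comparison, up to 10 in each direction with the largest changes among those called and changed alike in every animal. As no names are paired with identifiers, 2 per direction are given by identifier and others by position. Loci named for their place beside others, for a day difference without a 3-fold change, or as the few called in a comparison, were chosen after their values were seen. Deviations from type means correlated within animals over all pairs of types and days, with r from 0.092 to 0.627. The pairing comes from the animal named in the labels. The first number of the titles, whose meaning the labels do not give, puts M1 with M2, M3 with M4 and M5 with M6. The biopsy of M5 goes with M3 and M4 instead. A direction seen in 6 of 6 animals holds for each pair, but in M5 the biopsy and the milk specimens also differ in this number. Alternatives were another scaling, FPKM as deposited, 0.1 or 10 added, other filters, the animal as a block, and leaving out each animal.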

Additional observations from a re-analysis of the deposited data

Results flagged for a closer look

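In 15 of 110 pairs of a named locus or share and a group of specimens, the highest or lowest specimen stood apart. Its gap to the next exceeded Dixon's limit. For normally distributed values about 5.5 pairs (1 in 20) would do so by chance. FPKM were taken unlogged, in some flagged groups only the flagged specimen was detected, and the pairs share specimens. The count of 15 can therefore not be weighed against 5.5, and the flags are descriptions only. Of all 17 results listed here, 6 concern M2 and 5 M6.

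For ENSMMUT00000035079, on chromosome 16, 4 groups had such a specimen: M6 in day 30 milk fat at 13025 FPKM (next 490), M2 in day 30 milk cells at 1665 (next 158), M6 in day 90 milk cells at 413 (next 167) and M2 in cell-free milk at 171 (next 52.7). The MT1E-matched ENSMMUT00000003525 was high in day 90 milk fat of M4, at 3420 FPKM (next 1941). Its like on chromosome 10 was high in the biopsy of M6, at 2185 (next 928). The locus on chromosome 2 (78148992 to 78149187) was high in day 90 milk fat of M2, at 709 (next 544). ENSMMUT00000049596 was high in the biopsy of M2, at 58.3 (next 34.9).

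The remaining ones were at low levels, where a specimen may rest on few reads. The locus on chromosome 20 (66279390 to 66279543) was high in the biopsy of M4 at 52.8 FPKM (next 25.4), in day 30 milk cells of M2 at 17.1 (next 5.68) and in day 30 milk fat of M6 at 2.78 (others 0). That on chromosome 7 (155249775 to 155249886) was at 0 in day 30 milk cells of M3 (next 5.71) and at 12.5 in day 90 milk cells of M2 (others 0). The first chromosome 2 neighbour was at 2.41 in day 90 milk fat of M6 (others 0), and the third chromosome 16 neighbour at 2.62 in cell-free milk of M5 (others 0).

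For 2 loci the days went opposite ways in the milk fractions. The chromosome 11 locus of span 175 was lower at day 90 in milk cells in 6 of 6 animals and higher in milk fat in 4 of 4, with a difference between the 2 day effects of -0.74 on the log2 scale. The chromosome 6 locus (53139396 to 53139588) did the same, with a difference of -0.67. These differences were not tested.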

How the results depend on the processing

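Of 345 recomputed counts and shares, 281 stayed within their limits and 64 moved. Over 227 recomputed fold changes, for at most 2 loci per direction changed alike in every animal, none reversed and 12 were no longer called. With 10 added to FPKM these were 5 loci under 3-fold, and the other 7 came from leaving out an animal, in milk fat against milk cells or cell-free milk against milk cells. With the 20 highest transcripts out of the denominator, shares were 3.94%, 4.74%, 5.39% and 5.05% in biopsies, milk cells, milk fat and cell-free milk, and without the highest small locus the cell-free share was 1.02%. Loci seen per specimen were 63.8, 71.4, 67.2 and 65.5 when above 0 in all runs and 117, 116, 114 and 101.8 when overlapping no other locus. At 1 FPKM or more they were 123 in milk fat and 111 in cell-free milk, and with same-valued loci counted once, a choice made after seeing the data, 137 and 127.

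With 10 added to FPKM, higher and lower calls were 8 and 5 for milk fat against biopsies, 3 and 2 for milk cells against biopsies, 2 and 5 for cell-free milk against biopsies, 0 and 1 for milk fat against milk cells, with 0 lower in cell-free milk against milk fat and 1 against milk cells. With 0.1 added, they were 4 and 17 for milk fat against milk cells and 1 and 3 for cell-free milk against milk fat, with 11 higher for cell-free milk against biopsies and 1 higher at day 90 in milk cells. Testing only loci above 0 in at least 50% of specimens gave 10, 11 and 14 lower in milk fat, milk cells and cell-free milk against biopsies. FPKM as deposited gave 10 higher in milk cells and 10 in cell-free milk against biopsies, and moved the median of all transcripts by 0.16, 0.22 and 0.22 for milk fat, milk cells and cell-free milk against biopsies, by 0.10 for cell-free milk against milk fat, and by -0.16 and -0.21 between days of milk fat and biopsies. Without the filter no locus was lower in cell-free milk than in milk fat (0). The animal as a replicate block gave 3 lower in cell-free milk against milk fat, and 2 higher and 3 lower between days of milk cells, and moved no other count by over 1.5 times. The causes were not tested.

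Leaving out each animal gave 13 to 20 higher and 26 to 33 lower in milk fat against biopsies, 4 to 9 and 12 to 23 in milk cells against biopsies, 5 to 11 and 21 to 29 in cell-free milk against biopsies, 1 to 2 and 1 to 5 in milk fat against milk cells, 0 to 1 and 0 to 6 in cell-free milk against milk fat, 0 and 1 to 5 in cell-free milk against milk cells, and at most 2, 1 and 3 lower between days of milk cells, milk fat and biopsies. Shares were 0.748% to 0.954% in biopsies, between 1.14% and 1.33% in milk cells, between 1.41% and 1.72% in milk fat and 1.26% to 1.37% in cell-free milk. Read depth limits all loci of a few FPKM.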
